A study of Rattus norvegicus with 50 samples.

Results

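Rat lungs taken at day 21 of inhaling printer-emitted particles (PEPs) were compared with lungs of rats kept in filtered air. The comparison held 12 of the 50 arrays of the series, 6 from the PEP group (PEP_D21) and 6 from the Air group (Air_D21), taken by their labels as the day 21 lungs of rats without a telemetry implant. All animals were male Sprague-Dawley rats, 9 weeks old at purchase and older when the lungs were taken, and each sat in a chamber of its own for 5 h per day on consecutive days. The PEP group inhaled, through the whole body route, the particles together with the gases of a laser printer (B1), so the part of the particles and the part of the gases cannot be told apart, and the Air group inhaled HEPA-filtered air. The other lungs of the series served here only to show where day 21 differed. They were 4 Air and 4 PEP lungs of rats that carried a telemetry implant through day 21 (Air_D21T and PEP_D21T), and 10 lungs for each of days 1, 5 and 9, 5 from Air and 5 from PEP rats. The question was which transcripts of the lung differed after the longest course of exposure.

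The lung clears inhaled particles by several routes. Multiciliated cells of the airway beat mucus upward with motile cilia, whose axoneme is built from dynein arms, radial spokes and a central pair of microtubules, and secretory (club and goblet) cells supply the mucus and the secretoglobins. Macrophages take up what reaches the alveoli, and lymphocytes gather around airways and vessels. The lung also keeps a circadian clock, in which the CLOCK, NPAS2 and BMAL1 proteins drive the Per and Cry genes and the PER and CRY proteins repress them in turn.

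A total of 8202 named genes varied enough over the series to be tested, and 6355 did not. Over all 36685 probe sets, array medians of the 12 lungs lay between 4.98 and 5.09 on the log2 scale, and any pair of these lungs correlated at 0.970 to 0.981. These values do not show how far single lungs moved the calls, which is given below. The tissue label was checked against lung markers, because a further label and the extraction protocol speak of blood. The level of Sftpc, the surfactant protein C gene, was 13.1 to 13.2 in the 12 lungs and that of Ager, a gene of alveolar type 1 cells, 11.9 to 12.4, whereas Alb, the albumin gene of liver, lay between 2.88 and 4.61. Exposures took place in more than 1 year. Since the labels give neither the year nor the hour of the day for a lung, neither could be tested. Log2 differences below are PEP minus Air with the SE of the limma fit over all 50 arrays, and a gene was called when its p was below 0.05 after Benjamini-Hochberg adjustment over the 8202 genes.

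Promoters are shown for cilia genes, because these formed the largest group of genes with lower values in PEP lungs. RFX transcription factors, which drive ciliary genes, bind the X-box, and the letters GTTGCC, which form an arm of it, were searched on both strands in the RefSeq windows of build GRCr8, from 250 bases before to 50 bases after each gene's start. Of the 78 cilia genes tested, 67 had a window and 34 of these held the letters (50.7%), against 12.4% of all genes tested and 13.1% of all genes with a window. The 4 windows below are those of the cilia genes with the most negative log2 differences among matched genes with a single window. Capitals mark the match, as GTTGCC or as its reverse complement. The windows lie at chrX:108512752-108513051 for Dnaaf6, which encodes a dynein assembly factor, chr11:81235080-81235379 for Iqcg, of the nexin-dynein regulatory complex, chr11:97677590-97677889 for Spag6l, of the central pair, and chr10:57479072-57479371 for Tekt1, a tektin of the doublet microtubules. The first 3 are on the plus strand and Tekt1 is on the minus strand.
Dnaaf6: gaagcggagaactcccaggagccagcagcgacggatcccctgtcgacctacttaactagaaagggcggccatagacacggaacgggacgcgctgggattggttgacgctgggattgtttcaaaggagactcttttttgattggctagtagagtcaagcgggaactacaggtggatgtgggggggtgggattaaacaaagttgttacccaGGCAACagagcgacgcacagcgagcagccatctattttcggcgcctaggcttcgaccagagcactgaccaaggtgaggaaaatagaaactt
Iqcg: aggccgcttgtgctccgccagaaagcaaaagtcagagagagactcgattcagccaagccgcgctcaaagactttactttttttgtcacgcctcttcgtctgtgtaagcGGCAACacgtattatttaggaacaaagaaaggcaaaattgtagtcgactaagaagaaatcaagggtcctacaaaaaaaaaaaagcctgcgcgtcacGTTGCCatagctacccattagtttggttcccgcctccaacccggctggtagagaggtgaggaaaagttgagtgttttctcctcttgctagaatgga
Spag6l: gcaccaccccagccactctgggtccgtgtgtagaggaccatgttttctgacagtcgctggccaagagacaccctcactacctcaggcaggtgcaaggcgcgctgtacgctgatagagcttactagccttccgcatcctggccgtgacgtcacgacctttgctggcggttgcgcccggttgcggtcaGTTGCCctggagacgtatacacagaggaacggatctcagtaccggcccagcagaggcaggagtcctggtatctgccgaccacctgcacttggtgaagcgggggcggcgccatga
Tekt1: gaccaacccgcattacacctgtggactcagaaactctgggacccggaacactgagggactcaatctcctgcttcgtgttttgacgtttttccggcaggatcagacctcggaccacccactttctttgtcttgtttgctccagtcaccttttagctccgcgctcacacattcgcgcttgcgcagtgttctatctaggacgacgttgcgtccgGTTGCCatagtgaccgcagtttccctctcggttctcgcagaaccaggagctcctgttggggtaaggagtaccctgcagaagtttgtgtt
A match of 6 letters is a description and not a bound site. In these 4 promoters the match nearest to the start lay 41, 46, 64 and 39 bases before it. The E-box CACGTG, which CLOCK and BMAL1 bind, was searched in the same way and was found in 1 of 10 clock genes with a window, that of Bhlhe40, against 6.44% of all genes tested. The clock genes Cry1 and Wee1 had no window, so their promoters were not searched.

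At day 21, 16 genes were called higher and 2 lower in PEP than in Air lungs. They make up 0.195% and 0.0244% of the genes tested (0.219% together), and their fold changes, in either direction, lay between 1.40 and 1.86. Was, Treml2, Cd96, Cd247 and Alox5ap are genes of leukocytes, and Cry1 encodes a repressor of the clock. In bulk lung RNA, more cells of a type and more RNA per cell cannot be told apart. The others called higher were Cyp39a1, Bicc1, Kcnd3, Steap2, Or13a23, Rab6b, Fancg, Timp3, Gpx3 and Tmem104, while Trmt9b and Fam3b were called lower. The values of the groups did not overlap for 9 of the 18, against 0.841% of all genes tested. Over all genes 46.1% of the differences were positive and the median was -0.02. The number of calls depended on single lungs. With Air replicate 1, 2, 3, 5 or 6 left out it was 2, 5, 1, 12 or 9, and with PEP replicate 2, 4, 5 or 6 left out it was 12, 4, 1 or 3. It was 30 when Air replicate 4 was dropped, and 37 or 34 when PEP replicate 1 or 3 was. In a limma fit of the 12 arrays alone 0 genes were called, with 1024 at an unadjusted p below 0.05. When genes with a mean below 5 were left out, 108 of 3460 genes were called, 74 higher and 34 lower.

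**Figure D1:**
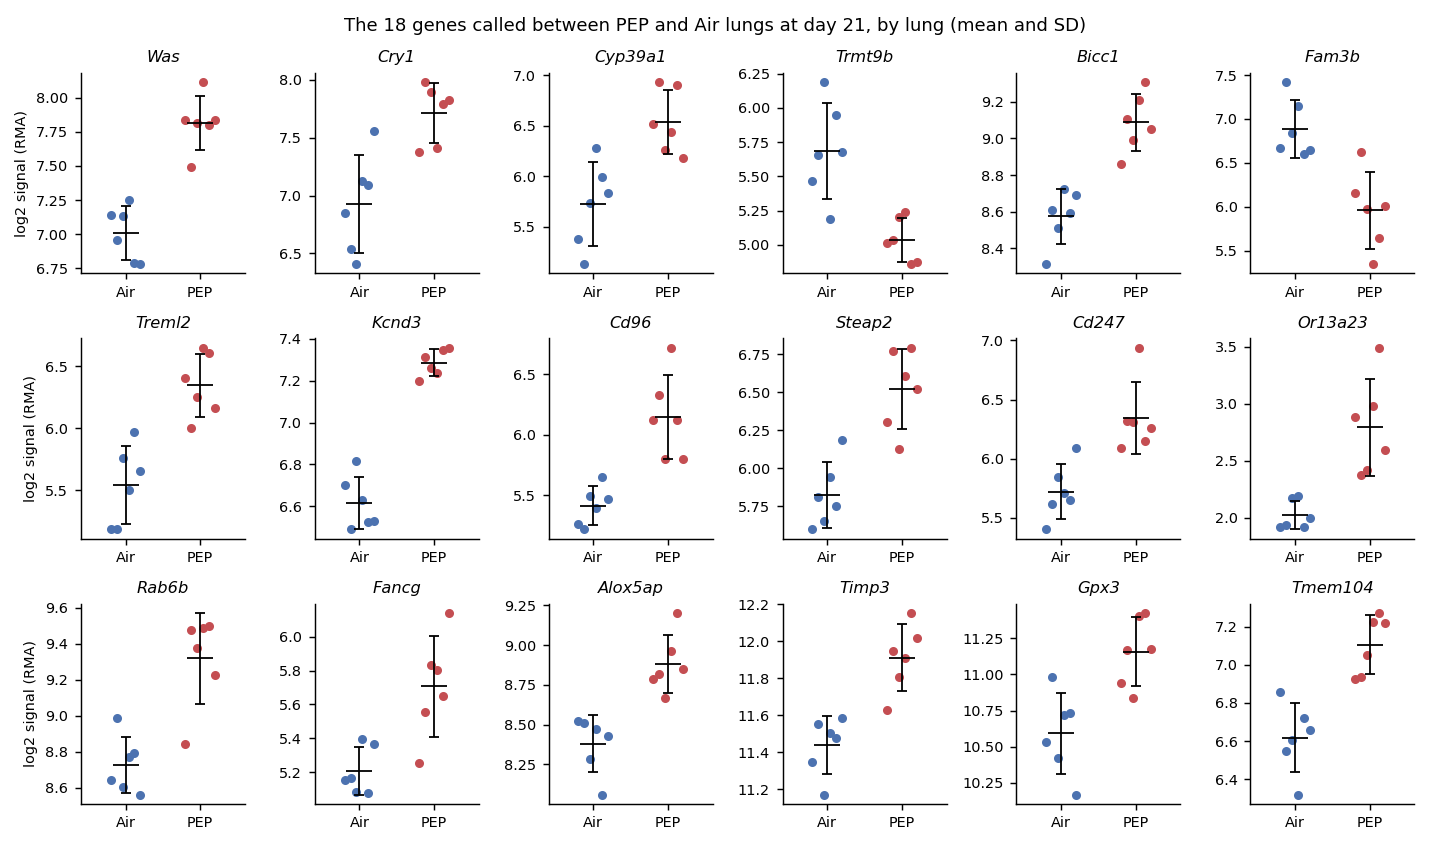
Log2 RMA signal of the 18 called genes in each lung at day 21 without implant, with 6 Air lungs in blue and 6 PEP lungs in red; each axis has its own range, and bars are the mean and SD. The groups do not overlap for 9 of the 18 genes. Was is among these, and its 6 PEP values, from 7.49 to 8.11, lie above all 6 Air values. In the remaining genes, Cd247 and Fam3b among them, PEP values touch or overlap the Air values.

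Was encodes the WASP protein, which links receptor signals to the actin skeleton of blood cells, and lies at chrX:17077057-17085802 (build GRCr8, as for all positions). Its log2 signal was 6.78, 7.04 and 7.25 (lowest, median and highest of 6) in Air lungs and 7.49, 7.83 and 8.11 in PEP lungs. The groups did not overlap, and the difference was 0.82 ± 0.12 (adjusted p = 0.000128). It was the 1 gene of the 18 that was called whichever of the 12 lungs was left out. Treml2, a receptor of myeloid and lymphoid cells, ran from 5.18 through a median of 5.58 to 5.97 in Air and from 6.002 through 6.33 to 6.65 in PEP lungs. Here the groups parted by a narrow gap (0.77 ± 0.17, adjusted p = 0.0406). Alox5ap, which presents arachidonic acid to 5-lipoxygenase at the start of leukotriene synthesis, was at 8.06, 8.45 and 8.52 in Air and 8.67, 8.83 and 9.20 in PEP lungs, again without overlap (0.53 ± 0.12, adjusted p = 0.0406).

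Of the called genes outside leukocytes and the clock, several encode enzymes, channels and proteins of the extracellular space. Kcnd3, which encodes a voltage-gated potassium channel, had the tightest PEP values, 7.20, 7.29 and 7.36, against 6.49, 6.58 and 6.82 in Air lungs (0.68 ± 0.15). Cyp39a1 encodes an oxysterol hydroxylase and was at 5.13, 5.78 and 6.28 in Air and 6.18, 6.48 and 6.93 in PEP lungs (0.81 ± 0.16, adjusted p = 0.0254). The groups overlapped for Cyp39a1 and not for Kcnd3. Gpx3, the secreted glutathione peroxidase, was at 10.17, 10.63 and 10.98 in Air and 10.84, 11.17 and 11.43 in PEP lungs (0.60 ± 0.14). Timp3, an inhibitor of metalloproteinases that is held in the matrix, was at 11.17, 11.49 and 11.58 and at 11.63, 11.93 and 12.15, without overlap (0.50 ± 0.12). Steap2, a metalloreductase, was at 5.60, 5.78 and 6.19 in Air and 6.13, 6.56 and 6.79 in PEP lungs (0.72 ± 0.16). Each of these genes was above the Air mean in all 6 PEP lungs.

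Bicc1, an RNA-binding protein gene, was at 8.31, 8.60 and 8.72 in Air and 8.86, 9.08 and 9.31 in PEP lungs (0.53 ± 0.11), and Tmem104, a transmembrane protein gene, was at 6.32, 6.63 and 6.86 and at 6.93, 7.13 and 7.27 (0.48 ± 0.11). Both had groups that did not overlap. Rab6b, a GTPase of vesicle traffic, differed by 0.62 ± 0.14 and Fancg, of the Fanconi anaemia pathway of DNA repair, by 0.55 ± 0.13, and for both the lowest PEP lung lay within the Air range. Or13a23, an olfactory receptor gene, was dim, at 1.92, 1.97 and 2.19 in Air and 2.37, 2.74 and 3.49 in PEP lungs (0.78 ± 0.18), and such dim signals lie near the array background. Each called gene for which no other value is given had an adjusted p of 0.0406.

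The 2 genes called lower in PEP lungs were Trmt9b and Fam3b. Trmt9b encodes a homologue of tRNA methyltransferases (chr16:62439625-62495526) and was at 5.19, 5.67 and 6.19 in Air and 4.86, 5.02 and 5.24 in PEP lungs. Its highest PEP lung lay just above its lowest Air lung (-0.70 ± 0.14, adjusted p = 0.0255). Fam3b, which encodes a secreted protein of pancreas and epithelia (chr11:50300926-50333296), was at 6.61, 6.75 and 7.42 in Air and 5.35, 5.99 and 6.63 in PEP lungs (-0.89 ± 0.20, adjusted p = 0.0406). All 6 PEP lungs were below the Air mean for both.

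Genes of T cells were higher in PEP lungs as a group, with positive differences in 31 of the 32 tested members and a median of 0.43 (log2), beside -0.02 over all genes. At an unadjusted p below 0.05, 21 of the 32 were higher and 0 lower, against 7.16% higher over all genes (14.3% in either direction). At 1.5-fold or more 6 were higher, against 1.01%, and 2 were called over all genes (Cd96 and Cd247). Values of the groups did not overlap for 5 (Cd96, Cd3g, Cd4, Cd8a and Zap70), against 0.671% of all genes with PEP above Air. Where genes with a mean below 5 were left out, 8 T cell genes were called, namely these 5 with Cd247, Cd27 and Tcf7. The list was chosen with earlier results of these data known and is a description.

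Cd247 encodes the zeta signalling chain of the T cell receptor and was at 5.40, 5.68 and 6.09 in Air and 6.09, 6.28 and 6.94 in PEP lungs (0.62 ± 0.14, adjusted p = 0.0406). Cd96, an adhesion receptor of T and natural killer (NK) cells, was at 5.22, 5.43 and 5.65 in Air and 5.80, 6.12 and 6.72 in PEP lungs (0.69 ± 0.16, adjusted p = 0.0406). PEP replicate 4 was the highest lung for both. Cd3g, a chain of the receptor complex, was at 5.26, 5.79 and 6.46 in Air and 6.52, 6.60 and 6.74 in PEP lungs (0.73 ± 0.19, adjusted p = 0.0695). Cd8a, the coreceptor of cytotoxic T cells, was at 5.83, 6.54 and 6.61 in Air and 6.77, 7.002 and 7.56 in PEP lungs (0.68 ± 0.17, adjusted p = 0.0526). Cd4, the coreceptor of helper T cells, was at 7.93, 7.99 and 8.21 in Air and 8.32, 8.84 and 9.01 in PEP lungs (0.71 ± 0.19, adjusted p = 0.0842). For these 3 genes every PEP lung lay above every Air lung although the adjusted p missed the threshold. Zap70, the kinase that the zeta chain recruits, was at 0.57 ± 0.15, Cd27, a costimulatory receptor, at 0.77 ± 0.20, Tcf7, a transcription factor of naive and memory T cells, at 0.43 ± 0.11, and Cd3e at 0.48 ± 0.16 (adjusted p between 0.0695 and 0.184).

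Cytotoxic, B cell and general leukocyte genes followed with smaller counts. Over all genes, 46.1% were positive, 7.16% were higher at an unadjusted p below 0.05, 0.195% were called higher and 0.671% lay wholly above Air. Of 29 genes of cytotoxic and NK cells 27 were positive (median 0.25), 11 were higher at an unadjusted p below 0.05 and 0 were called. Prf1, the gene of the pore-forming perforin, was at 6.78, 7.57 and 7.74 in Air and 7.77, 8.22 and 8.92 in PEP lungs, without overlap (0.77 ± 0.20, adjusted p = 0.0695). Ctsw, a protease of cytotoxic cells, was at 0.57 ± 0.15 and did not overlap either, whereas Gzmb, the granzyme B gene, spread widely in PEP lungs, from 4.63 to 6.82, and was at 0.40 ± 0.30. Of 16 B and plasma cell genes 13 were positive (median 0.34) and 8 were higher at an unadjusted p below 0.05, with Tnfrsf13c, the BAFF receptor, at 0.80 ± 0.25, Ms4a1, a B cell surface protein, at 0.69 ± 0.23 and Pou2af1, a B cell coactivator, at 0.57 ± 0.19. Only Pou2af1 of the 16 had groups that did not overlap. All 19 pan-leukocyte genes tested were positive (median 0.34), 13 of them at an unadjusted p below 0.05 and 2 called (Was and Treml2). Among them, Runx3, a transcription factor of lymphocytes, was at 0.55 ± 0.17, Evi2b at 0.43 ± 0.13, Cd53, a tetraspanin, at 0.41 ± 0.13 and Lcp2, an adaptor below the T cell receptor, at 0.37 ± 0.12.

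Myeloid genes were less uniform. Of 15 neutrophil genes 12 were positive (median 0.15) and 2 passed an unadjusted p of 0.05, Itgam (0.55 ± 0.15) and Csf3r, the receptor of granulocyte colony-stimulating factor (0.58 ± 0.19), while S100a8, a defining gene of neutrophils, was at 0.20 ± 0.31. Of 17 macrophage and monocyte genes 13 were positive and 4 negative (median 0.12), from -0.70 to 0.77. At 1.5-fold or more 1 was higher and 1 lower, against 1.01% and 2.27% of all genes. Ccr2, the chemokine receptor of inflammatory monocytes, was at 7.39, 7.93 and 8.26 in Air and 8.05, 8.58 and 9.20 in PEP lungs (0.77 ± 0.25, adjusted p = 0.174), Cx3cr1 was at 0.55 ± 0.22, Siglec1 at 0.47 ± 0.16 and C1qb, a complement subunit made by macrophages, at 0.43 ± 0.16. Cd68, a marker of lung macrophages in general, differed by 0.03 ± 0.15. Of 8 genes of dendritic cells and MHC class II 6 were positive (median 0.34), with the costimulators Cd80 at 0.48 ± 0.16 and Cd86 at 0.43 ± 0.15 and Clec9a, of cross-presenting dendritic cells, at 0.47 ± 0.16. In limma 0 genes of these 3 lists were called, and 2, 4 and 3 were higher at an unadjusted p below 0.05. Over all genes 7.16% were higher at that p, and 14.3% passed it in either direction. The 2 of 15 neutrophil genes are a share close to the latter. Genes of other blood and lymphoid sources lay near 0, with a median of -0.03 over 4 thymocyte genes and 0.04 over 10 erythroid genes.

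**Figure D2:**
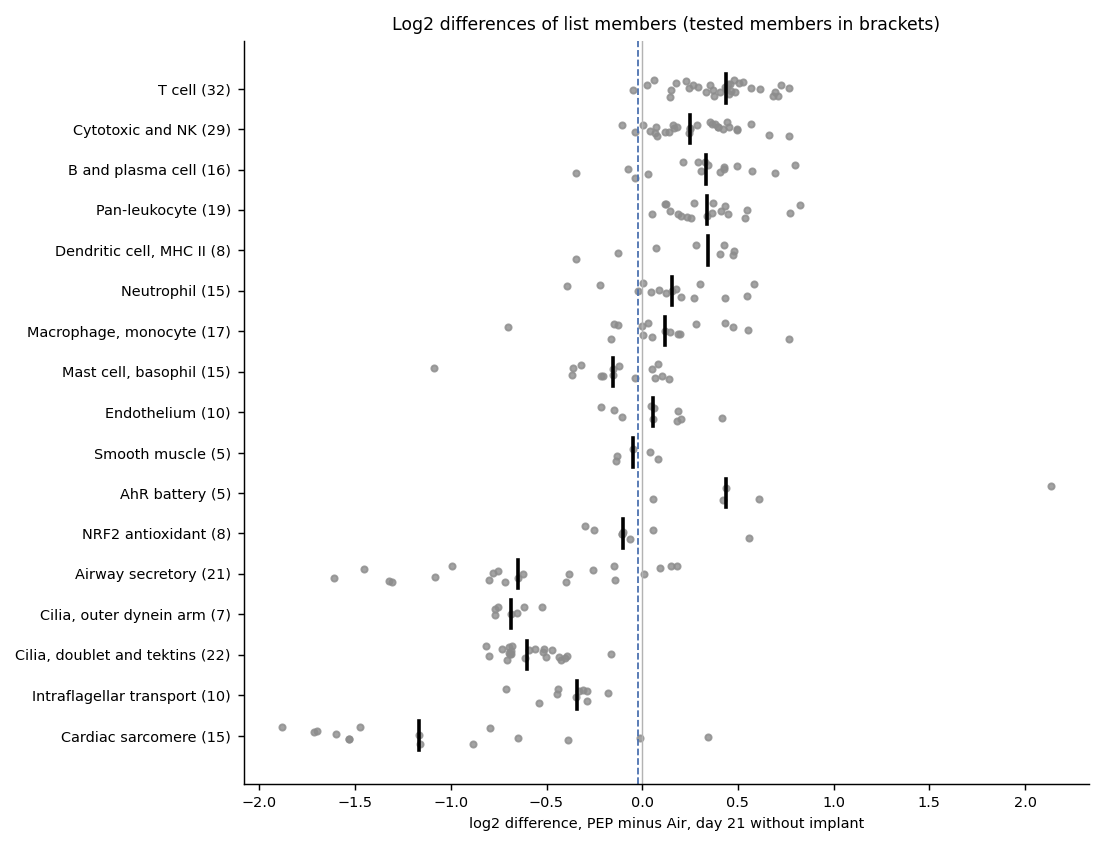
Log2 difference (PEP minus Air, day 21 without implant) of each tested member of 17 gene lists, with the median of each list as a black bar; the dashed line is the median over all 8202 genes, -0.02. Points of the T cell and pan-leukocyte lists lie almost all above 0 and those of the cilia lists below 0, while those of cardiac sarcomere genes spread from -1.88 to 0.34.

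The leukocyte difference of day 21 was then set against the other times, since it can come from either group. The mean of the T cell genes, as deviation from all 50 lungs, was -0.45 in Air_D21 (lungs from -0.63 to -0.31) and -0.02 in PEP_D21 (from -0.18 to 0.18). The other groups lay between -0.11 (Air at day 5) and 0.28 (Air_D21T). The lowest single lung outside Air_D21 was at -0.26, in the PEP group of day 9, so all 6 Air_D21 lungs lay below every other lung of the series. B and plasma cell genes were also lowest in Air_D21 (-0.36, against -0.07 in PEP_D21 and 0.23 in Air_D21T), as were pan-leukocyte genes (-0.39, against -0.04 and 0.24). Was itself had group means of 7.89, 7.78, 8.12 and 7.01 in Air at days 1, 5, 9 and 21 and 8.12 in implanted Air rats, and of 8.13, 7.65, 8.09 and 7.82 in PEP at the same days and 8.19 with the implant. The PEP mean of day 21 thus lay among the means of the other days, and the Air mean lay below them. Of the 16 genes called higher, 10 had their lowest Air mean in Air_D21 and 8 had their highest PEP mean in PEP_D21. What set the Air_D21 lungs apart in these genes was not tested.

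**Figure D3:**
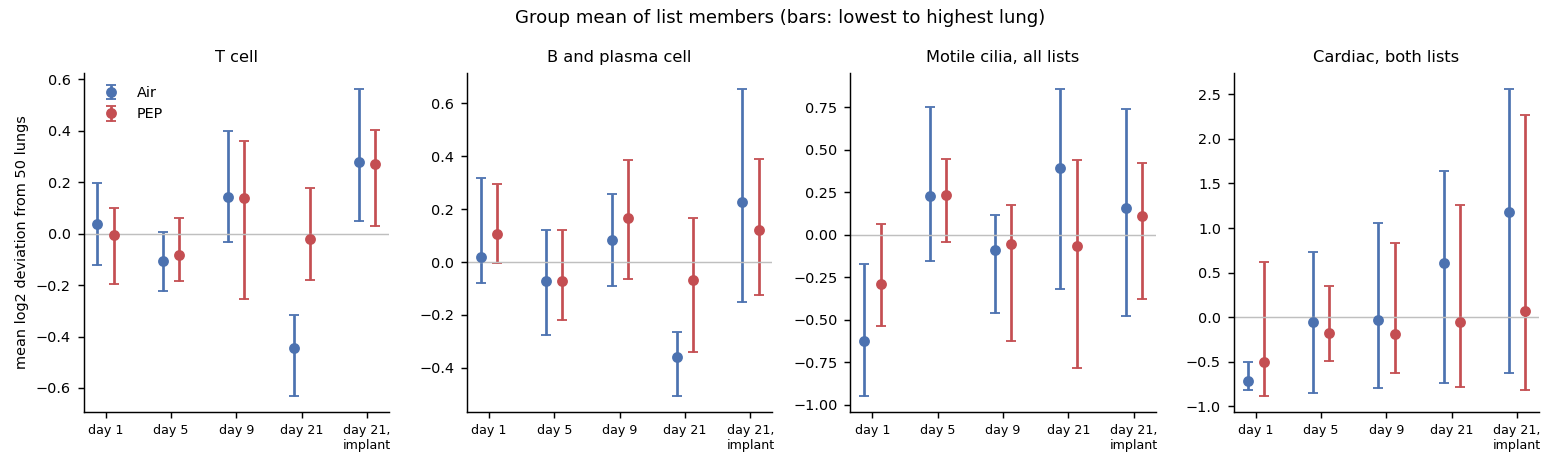
Mean deviation (log2) of the members of 4 gene groups from their mean over all 50 lungs, by day and implant, for Air (blue) and PEP (red); points are group means and bars run from the lowest to the highest lung (n = 5 per group at days 1, 5 and 9, 6 at day 21 and 4 with the implant). For T cell genes Air at day 21 lies at -0.45, below the other 9 groups, and in the cardiac panel the bars of Air and PEP overlap widely.

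Clock genes differed in opposite directions. Cry1, at chr7:20417526-20481791, was at 6.41, 6.97 and 7.56 in Air and 7.38, 7.81 and 7.98 in PEP lungs (0.80 ± 0.15, adjusted p = 0.0189). Only Air replicate 6 reached into the PEP range. Per2, another repressor of the loop, was at 7.50, 7.71 and 8.63 in Air and 8.44, 8.71 and 8.89 in PEP lungs (0.73 ± 0.29, adjusted p = 0.229), and Air replicates 5 and 6 were the high Air lungs. The activator Npas2 was lower, at 6.97, 7.26 and 7.97 in Air and 6.22, 6.70 and 7.14 in PEP lungs (-0.70 ± 0.23, adjusted p = 0.179). Bmal1, the partner of CLOCK and NPAS2, was at -0.40 ± 0.30, Cry2 at 0.21 ± 0.11, and Dbp, an output factor with a strong daily rhythm, at 0.16 ± 0.33. Among output genes, Wee1, a mitotic kinase under clock control, was at 0.46 ± 0.14 and Bhlhe40, a repressor, at 0.36 ± 0.18. Of the 12 clock genes tested 1 was called, 3 were higher (Cry1, Per2 and Wee1) and 1 was lower (Npas2) at an unadjusted p below 0.05. Over all genes 0.219% were called, and 7.16% were higher and 7.12% lower at that p.

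The clock genes behaved differently at other times. Cry1 differed by 0.32 ± 0.18 in implanted rats and by 0.05, 0.02 and 0.10 at days 1, 5 and 9, and its difference at day 21 exceeded the mean of these 3 days by 0.74 (adjusted p = 0.126). Per2 was at 0.80 ± 0.34 in implanted rats, 0.75 at day 1 and 0.57 at day 9. Dbp was at 1.32 at day 1. Cry1 was thus high at day 21 without a matching difference of Dbp, and Per2 had positive differences in 4 of the 5 comparisons. The hour at which each lung was taken is not in the labels and its part was not tested.

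Motile cilia genes were lower in PEP lungs across all parts of the axoneme, and none of them was called. Of 78 tested members of the 8 cilia lists, 76 were negative, the median was -0.54, and 51 were lower at an unadjusted p below 0.05, against 7.12% lower over all genes. At 1.5-fold or more 31 were lower, against 2.27% of all genes (3.28% in either direction). The groups overlapped in all 78, where 0.171% of all genes lay wholly below Air. By part, medians were -0.69 for outer dynein arms and docking (7 genes), -0.53 for inner arms (3 genes), -0.52 for dynein assembly factors (11 genes), -0.60 for radial spokes and the nexin link (11 genes), -0.57 for the central pair (8 genes), -0.60 for doublet proteins and tektins (22 genes), -0.34 for intraflagellar transport (10 genes) and -0.34 for ciliary transcription and basal body amplification (6 genes).

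Dnai1, an intermediate chain of the outer dynein arm, was at 6.51, 7.88 and 8.19 in Air and 6.18, 7.11 and 7.38 in PEP lungs (-0.76 ± 0.26, adjusted p = 0.187). Air replicates 2 and 4 lay within the PEP range, at 6.99 and 6.51. Rsph4a, of the radial spoke head, was at 7.75, 8.80 and 9.07 in Air and 6.69, 7.70 and 8.54 in PEP lungs (-0.86 ± 0.30), and Dnaaf6, whose promoter is shown above, at 4.33, 5.06 and 5.96 and at 3.47, 4.25 and 5.16 (-0.87 ± 0.31). Tekt1 was at -0.80 ± 0.27, Spag6l at -0.80 ± 0.30, Cfap276, a doublet protein, at -0.82 ± 0.27 and Odad2, of the docking complex, at -0.77 ± 0.29. The smallest p of the group belonged to Ift122, a subunit of the intraflagellar transport complex that carries cargo back from the ciliary tip, at 7.45, 7.84 and 8.08 in Air and 7.05, 7.34 and 7.69 in PEP lungs (-0.45 ± 0.14, adjusted p = 0.143). It was the 1 member of the 8 lists called when genes with a mean below 5 were left out. The regulators of ciliogenesis had a median closer to 0 (-0.34, against -0.54 for all 78 genes), and 5 of the 6 were negative. They ran from Deup1 at -0.49 to Mcidas at 0.15 ± 0.16, with Gmnc at -0.36 ± 0.20.

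The cilia values varied by lung within each group. As the mean of all 78 genes about the 12 lungs, Air lungs ran from -0.48 through a median of 0.48 to 0.70 and PEP lungs from -0.95 through -0.20 to 0.28. Air replicates 2 and 4 were the low Air lungs, and PEP replicate 2 was the lowest lung for 62 of the 78 genes. Airway secretory genes followed the same lungs, from -0.79 through 0.50 to 1.13 in Air and from -0.99 through -0.22 to 0.51 in PEP lungs. These 2 groups of genes belong to cells of the same airway epithelium, and how much conducting airway each piece of lung held was not tested.

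**Figure D4:**
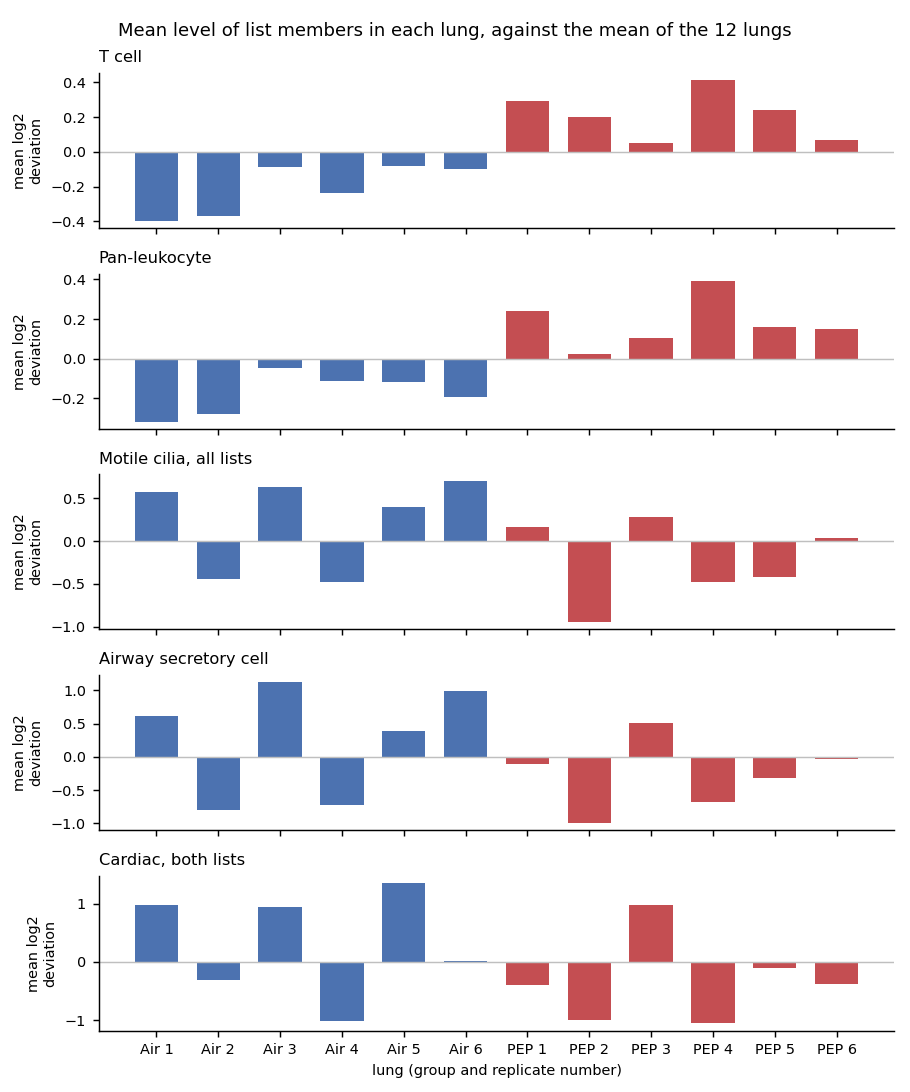
Mean log2 deviation of the members of 5 gene groups from their mean over the 12 lungs, for Air replicates 1 to 6 (blue) and PEP replicates 1 to 6 (red). T cell and pan-leukocyte bars are below 0 in every Air lung and above 0 in every PEP lung, whereas in the cilia and secretory panels Air replicates 2 and 4 lie below 0 with PEP replicates 2, 4 and 5, joined in the secretory panel by PEP replicates 1 and 6, close to 0.

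Of 21 airway secretory genes 17 were negative (median -0.65), 8 were lower at an unadjusted p below 0.05, against 7.12% of all genes, and 0 were called. Tspan1, a tetraspanin of ciliated and secretory epithelium, was at 8.11, 9.32 and 9.64 in Air and 7.68, 8.35 and 9.02 in PEP lungs (-0.78 ± 0.26, adjusted p = 0.184). Wfdc21 was at -0.63 ± 0.21 and Foxa3, a transcription factor of goblet cells, at -0.65 ± 0.23, and all 6 PEP lungs were below the Air mean for these 3 genes. Agr2, which folds mucins, was at -0.99 ± 0.43, and the mucin gene Muc5b ran from 4.75 to 9.60 in Air and from 5.57 to 8.46 in PEP lungs (-1.08 ± 0.70). Bpifa1, an airway defence protein gene, was high in Air replicates 3 and 6 and PEP replicate 3, at 8.15, 8.01 and 7.27, and lay between 2.96 and 4.66 in the other 9 lungs (-1.61 ± 0.92). Scgb3a2, a secretoglobin of club cells, was at 8.96, 10.63 and 10.90 in Air and 8.66, 9.73 and 10.37 in PEP lungs (-0.72 ± 0.31). Scgb1a1, another secretoglobin, lay between 12.35 and 12.82 in all 12 lungs. The alveolar lists had few members that varied enough to be tested. Of 3 type 2 and surfactant genes 2 were negative and 1 positive, from -0.35 to 0.16. The lowest was Abca3, the lipid transporter of alveolar type 2 cells, with an unadjusted p of 0.0446. The 1 type 1 gene tested was at 0.40, also with an unadjusted p below 0.05. The medians of 10 endothelial and 5 smooth muscle genes were 0.06 and -0.05.

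Genes of cardiac muscle had the largest negative differences and the widest spread. Of 34 tested genes 31 were negative (median -0.74), and 19 were lower at 1.5-fold or more, against 2.27% of all genes. At an unadjusted p below 0.05, 4 were lower and 1 was higher, and the 5 of 34 are a share close to the 14.3% of all genes. In the rat, cardiac muscle extends into the wall of the pulmonary veins. Tnnt2, the cardiac troponin T gene, was at 4.47, 8.34 and 9.58 in Air and 4.59, 6.56 and 8.80 in PEP lungs (-1.60 ± 0.82, adjusted p = 0.365), so its Air lungs alone spread over a range of levels wider than the difference. Tnnc1, cardiac troponin C, was at 4.25, 6.42 and 7.73 in Air and 3.83, 4.52 and 6.57 in PEP lungs (-1.70 ± 0.63, adjusted p = 0.202). Air replicates 1, 3 and 5 and PEP replicate 3 were the high lungs of both genes. Myl7, the atrial light chain, was at -1.88 ± 1.19, Csrp3 at -1.72 ± 0.95 and Nppa, the atrial natriuretic peptide gene, at -0.38 ± 0.25. Air replicates 2 and 4 and PEP replicates 2 and 4, which were low in cilia and secretory genes, were also below the mean of the 12 lungs here. PEP replicates 1, 5 and 6 were below it too, at -0.40, -0.10 and -0.39. In cilia genes PEP replicates 1 and 6 were above it, at 0.16 and 0.03. Air replicate 6, the highest lung in cilia genes (0.70), was at 0.02 here, so the lungs did not keep 1 order. The 2 cardiac lists had medians of -1.17 (15 sarcomere genes) and -0.46 (19 genes of calcium handling, metabolism and peptides). Of the 3 positive genes the highest was Tbx5, a transcription factor of heart that is also used by lung mesenchyme, at 8.87, 9.07 and 9.29 in Air and 9.23, 9.38 and 9.80 in PEP lungs (0.40 ± 0.13). In implanted rats the median of the 34 genes was -1.06, in other animals.

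Matrix genes had medians near 0 as groups, 0.01 for 13 genes of elastic fibres, -0.07 for 14 collagen chains and 0.06 for 19 glycoproteins, proteases and inhibitors. Single members differed in both directions. Eln, the elastin gene (chr12:27604983-27648413), was at 8.27, 9.04 and 9.41 in Air and 7.55, 8.27 and 8.60 in PEP lungs (-0.79 ± 0.22, adjusted p = 0.107). Air replicates 1, 2 and 3 were the high lungs, and Air replicates 5 and 6 lay among the PEP lungs. The level of Eln was also lower at later days within Air, with group means of 10.92, 10.37, 10.25 and 8.92 at days 1, 5, 9 and 21 (not tested). Col1a1, a chain of fibrillar collagen, was at -0.42 ± 0.15. Fn1, the fibronectin gene, was at 10.14, 10.26 and 10.51 in Air and 10.30, 10.75 and 11.14 in PEP lungs (0.47 ± 0.16, adjusted p = 0.176), and Fbln5, which helps to assemble elastic fibres, was at 0.32 ± 0.13. Timp3 was the 1 matrix gene called.

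Genes that respond to what printers emit were read next. PEPs carry polycyclic aromatic hydrocarbons, which act on the aryl hydrocarbon receptor (AhR), and all 5 tested genes of the AhR battery were positive (median 0.44), with 0 called by limma and 1 at an unadjusted p below 0.05 (Aldh3a1). Cyp1a1, the classic AhR target, was at 3.41, 4.92 and 8.20 in Air and 4.26, 8.29 and 10.89 in PEP lungs (2.13 ± 1.09, adjusted p = 0.365). PEP replicates 2 and 4 were highest, at 10.25 and 10.89, while PEP replicates 5 and 6 were among the low lungs and Air replicate 4 was at 8.20. Aldh3a1, an aldehyde dehydrogenase, was at 4.65, 4.81 and 5.35 in Air and 4.84, 5.37 and 6.75 in PEP lungs (0.61 ± 0.20, adjusted p = 0.174), with PEP replicate 4 highest. Cyp1b1 was at 0.44 ± 0.22, where PEP replicate 4 stood at 7.21 and the other 5 PEP lungs between 5.33 and 5.82. In implanted rats Cyp1a1 was at -0.18 ± 1.29 and Aldh3a1 at -0.02 ± 0.24. The median difference of the battery was 0.15, -0.14 and -0.10 at days 1, 5 and 9, and -0.02 with the implant. As mean deviation from the whole series, single Air lungs reached 1.90 at day 1 and 1.75 at day 5, against 2.28 in PEP_D21. Group means at days 1, 5 and 9 were 0.08, 0.32 and -0.06 in Air and 0.50, -0.30 and -0.17 in PEP lungs. Whether the hydrocarbons played a part was not tested.

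Antioxidant genes under NRF2 showed no common direction. Of 8 tested, 2 were positive and the median was -0.10. Hmox1, haem oxygenase, was at 6.87, 7.36 and 7.47 in Air and 6.89, 7.01 and 7.12 in PEP lungs (-0.25 ± 0.12), and Me1, malic enzyme, at -0.30 ± 0.13, whereas Osgin1, an oxidative stress response gene, was at 5.25, 5.64 and 6.18 and at 5.96, 6.30 and 6.41 (0.56 ± 0.18, adjusted p = 0.16). Hmox1 and Osgin1 thus had opposite signs. Among 11 genes of metal and iron handling Steap2 was called, and Slc39a8, an importer of zinc and manganese, was at 0.63 ± 0.22. Of 7 glucocorticoid-induced genes 6 were positive (median 0.30). Zbtb16, which is strongly induced by glucocorticoids, ran from 7.06 to 9.67 in Air and from 9.08 to 9.77 in PEP lungs (0.89 ± 0.45), the spread being in the Air group. Of 7 p53 targets 2 were positive, among them Sesn2, a stress-induced regulator of growth, at 0.42 with an unadjusted p of 0.0108. Ch25h, which makes an oxysterol, was at -0.44 with an unadjusted p of 0.00791, opposite in sign to the called Cyp39a1.

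Inflammatory mediators differed little as groups, with medians of 0.03 for 19 interleukins and other cytokines and 0.03 for 16 chemokines. In limma 0 of them were called, and 2 and 1 had an unadjusted p below 0.05, against 14.3% of all genes. Il6 was lower, at 3.52, 3.91 and 4.50 in Air and 3.29, 3.49 and 3.63 in PEP lungs (-0.49 ± 0.17, adjusted p = 0.191), and Cxcl2, a neutrophil chemokine, was at -0.48 ± 0.22. Il16, a chemoattractant of CD4-positive cells, was at 6.83, 7.22 and 7.40 in Air and 7.34, 7.62 and 7.62 in PEP lungs (0.35 ± 0.12), Il1b at 0.38 ± 0.21 and Cxcl13, the B cell chemokine, at 0.76 ± 0.54. In leukotriene synthesis, Ltc4s, which acts after 5-lipoxygenase, was at 0.47 ± 0.19 beside the called Alox5ap. Among 8 genes of Toll-like receptors and particle sensing 6 were positive (median 0.16), with Tlr5, the flagellin receptor, at 0.53 and an unadjusted p of 0.043. Mast cell and basophil genes had a median of -0.15 over 15 genes. Enpp3, an ectoenzyme that marks activated basophils and is also made by epithelium, was at 8.10, 9.62 and 10.41 in Air and 7.43, 8.27 and 9.27 in PEP lungs (-1.09 ± 0.28, adjusted p = 0.0673), and it was low in Air replicates 2 and 4, as the cilia genes were. Of defining mast cell genes, Mcpt4 was dim, at -0.37 ± 0.14, and Hdc, which makes histamine, was at 0.10 ± 0.18, while Aoc1, which degrades histamine, was at -0.66 ± 0.23.

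The largest differences outside the calls, among genes whose groups did not overlap, were then listed. Above Air they were LOC100362069 (0.94 ± 0.32), Cntn2, a neural adhesion molecule (0.79 ± 0.19), Prf1, Rtn4rl2, a Nogo receptor homologue (0.75 ± 0.20), Cd3g and Cd4, and 3 of these 6 are lymphocyte genes. Below Air they were the olfactory receptor genes Or6d12b (-0.98 ± 0.30) and Or12j3 (-0.87 ± 0.26), Pdlim4 (-0.84 ± 0.34), Spon2, a matrix protein gene (-0.79 ± 0.20), Ffar4, a receptor of long-chain fatty acids (-0.65 ± 0.16), and Hes6, a transcription factor of the HES family (-0.53 ± 0.14). Ffar4 was at 6.38, 6.59 and 6.94 in Air and 5.62, 6.01 and 6.34 in PEP lungs (adjusted p = 0.0526). Spon2 was at 7.55, 8.13 and 8.43 in Air and 7.06, 7.19 and 7.52 in PEP lungs (adjusted p = 0.0695). The signals of the olfactory receptor genes were dim, with medians between 2.90 and 3.76. Over all genes, 55 lay wholly above and 14 wholly below Air.

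The difference at day 21 was smaller for all 18 called genes in implanted rats, which share no lung with the comparison above. The 18 genes were picked for a large difference in that comparison, so a smaller one in other lungs was likely from the outset. The sign was the same in 15 of the 18, and 2 had an unadjusted p below 0.05 there (Bicc1 at 0.31 ± 0.14 and Gpx3 at 0.36 ± 0.17). Over all genes, 1 gene was called in the comparison of implanted rats (0.0122%) and 5.58% had an unadjusted p below 0.05. Tested directly, the effect without implant minus the effect with implant was called by limma for 0 genes (smallest adjusted p = 0.529), with 554 genes (6.75%) at an unadjusted p below 0.05. Of the 18 called genes, 7 were among these, with Was at 0.75 ± 0.19, but the difference that picked the 18 is part of this contrast. Of 77 lymphocyte genes 67 had a positive difference of effects, 17 of them at an unadjusted p below 0.05. For cilia genes 77 of 78 had a negative one and for cardiac genes 27 of 34 a positive one, with 1 and 0 at an unadjusted p below 0.05.

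Set against days 1, 5 and 9, which also share no lung with day 21, the effect of day 21 was called as different for 2 genes, Was (0.80 ± 0.14, adjusted p = 0.00643) and 1700040F17Rikl (-1.46 ± 0.29, adjusted p = 0.0261), a gene of unnamed function that was named after its values were seen. At days 1, 5 and 9 limma called 0 genes between PEP and Air, with 6.55%, 5.38% and 5.15% of the genes at an unadjusted p below 0.05. For 1700040F17Rikl, means were 4.07 in Air_D21 and 3.03 in PEP_D21. A total of 912 genes (11.1%) had an unadjusted p below 0.05 for this difference of effects. All 18 called genes were among them. The day 21 difference that picked these 18 is part of the contrast, so their count is no support. Of the lists, 32 of the 77 lymphocyte genes, 54 of the 78 cilia genes and 1 of the 34 cardiac genes were among the 912. These lists were chosen with earlier results of these data known. Medians of the cilia genes were 0.31, -0.08 and 0.05 at days 1, 5 and 9, against -0.54 at day 21 and -0.07 with the implant. As group means about all 50 lungs, cilia genes were highest in Air_D21 (0.39), and PEP_D21 (-0.07) lay among the other groups, which ran from -0.62 in Air at day 1 to 0.23 in PEP at day 5. The lungs of Air_D21 spread from -0.32 to 0.86 and overlapped those of other groups. Medians of the T cell genes were -0.06, 0.03 and -0.02 at the 3 earlier days, against 0.43 at day 21 and -0.0014 with the implant. The lower level of cilia genes and the higher level of T cell genes at day 21 were not seen in the medians of the other 4 comparisons.

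**Figure D5:**
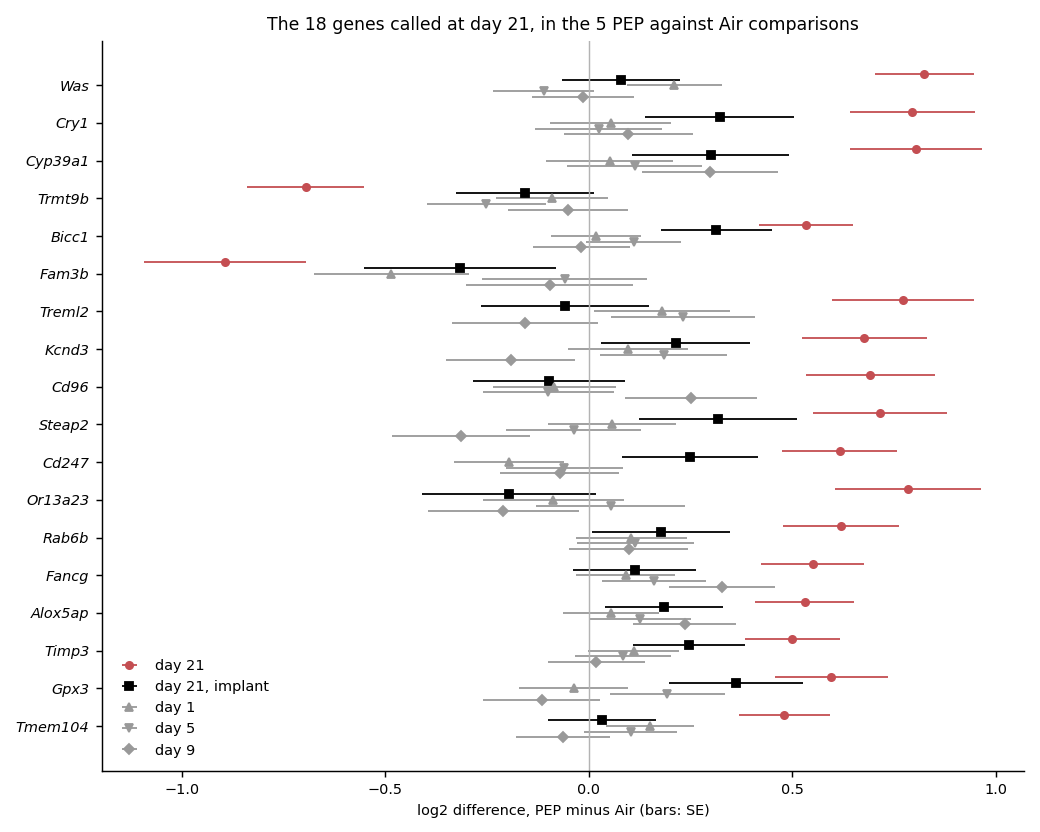
Log2 difference (PEP minus Air, with SE) of the 18 called genes at day 21 without implant (red), at day 21 with the implant (black) and at days 1, 5 and 9 (grey). The red points of Was (0.82), Cry1 (0.80) and Cyp39a1 (0.81) lie apart from the other 4 points of each gene. All 18 black points are closer to 0 than the red ones, by which the genes were picked.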

How the data were processed

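Whole-transcript microarrays (Affymetrix Rat Gene ST) were hybridised with lung RNA, 1 array per lung. The authors deposited log2 values made with RMA in the oligo package under R 3.4, per the labels' processing notes. RMA corrects background, brings all arrays to the same distribution and condenses probes, so a difference shared by most genes would be removed. Precision is limited by the number of arrays.

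Of 36685 probe sets, 14824 had 1 gene in the platform annotation, 829 had several and 21032 had none. The brightest probe set was kept for each of 14557 genes, and genes with a variance over the 50 arrays below 0.05 were left out. One linear model with 10 groups and array weights (0.649 to 1.19 in the 12 lungs, 0.59 to 1.71 over all 50) was fitted in limma 3.58.1 (R 4.3.3), with moderated tests and Benjamini-Hochberg adjustment. It was checked on simulated data with noise drawn independently for each gene and array. Variation that genes share within a lung was not part of that check. Weighted linear models, array weights and the variance filter follow the study's methods. Contrasts between effects were fitted in the same model.

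Genes named were those called, the 6 largest differences in each direction without overlap, up to 10 members of smallest p per list, and fixed markers. The gene lists, the members and the tests were chosen with earlier results of these data known, and the list named from the study's text was not used as support. Alternatives were equal weights, the 12 arrays alone, other filters, centring, robust moderation, a replicate block, all probe sets and each lung left out. Promoter sequences and coordinates are from RefSeq, build GRCr8.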

Additional observations from a re-analysis of the deposited data

Results flagged for a closer look

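The effect of PEP at day 21 without implant differed from the mean effect of days 1, 5 and 9 for Was (0.80 on the log2 scale, adjusted p = 0.00643 in limma) and for 1700040F17Rikl (-1.46, adjusted p = 0.0261).

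Of 242 groups of 6 lungs examined for the named genes, 12 (4.96%) held a lung far from the other 5, and chance flags about 1 in 20 groups. Lungs far above their group were PEP replicate 4 for Cd247 (6.94) and Cyp1b1 (7.21), PEP replicate 1 for Cd3e (6.65), PEP replicate 3 for Muc5b (8.46) and Bpifa1 (7.27), and Air replicate 3 for Or6d12b (5.10). Lungs far below their group were PEP replicate 1 for Pou2af1 (4.97) and Map3k6, a stress kinase gene (7.07), PEP replicate 3 for Cd86 (6.44), Air replicate 4 for Runx3 (4.85), Air replicate 5 for Rtn4rl2 (3.34) and Air replicate 1 for Sesn2 (6.19).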

How the results depend on the processing

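The number of genes called at day 21 (18, with 16 higher and 2 lower) was 37 (27 and 10) with equal array weights, 45 (38 and 7) without the variance filter, 108 (74 and 34) when means below 5 were left out and 24 (18 and 6) with arrays centred on their medians. It was 16 (14 and 2) with robust moderation, 1 (Was) over all 25265 named and unnamed probe sets, and 0 higher and 0 lower in a fit of the 12 arrays alone (smallest adjusted p = 0.056). The 18 genes were all among the 37, the 45 and the 24, and 17 of them were among the 108. Whether equal replicate numbers pair the lungs could not be settled. The deviations of lungs with the same number correlated at 0.05 to 0.29, all positive, and 3 of 6 matched their own number best. With the replicate number as a block 2 genes were called, 2 higher and 0 lower, and 0 of them were among the 18. With 1 lung left out the count ran from 1 to 37, the genes higher from 1 to 26, the genes lower from 0 to 12 and the genes at 1.5-fold or more from 209 to 418, beside 269 with all lungs. The count of genes whose effect differed from days 1, 5 and 9 ran from 1 to 5, and was 1 without the variance filter. The count for the difference from implanted rats was 0 in each of these fits that gave a value. The log2 difference of Cd68 ran from -0.019 without PEP replicate 4 to 0.089 without PEP replicate 6. The causes of these changes were not tested. The median differences of the T cell, cytotoxic, B cell, pan-leukocyte, cilia, secretory and cardiac lists kept their signs in 18 settings. Dim probe sets lie near the array background, which limits what can be read from genes such as Or13a23, Mcpt4 and Il6.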
